A study of Mus musculus with 10 samples.

Results

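The heterochronic and stage-dependent regulators described here are 10 genes whose activity depends on the stage of development, most of them high in the early embryo: Lin28a, Lin28b, Trim71, Igf2bp1, Igf2bp2, Igf2bp3, Hmga1, Hmga2, Dnmt3a and Dnmt3b. They were chosen by gene name, and all 10 were found among the 49671 genes of the deposited count table. All 10 also had enough counts to be among the 14528 genes tested. RNA came from neural crest cells of single mouse embryos at embryonic day 10.5 on a mixed 129/Sv-C57BL/6 background, with 5 embryos in each of 2 groups. The control embryos had the genotype Wnt1Cre;R26mTmG;p53+/+, and the other embryos, called p53_activated here, had Wnt1Cre;R26mTmG;p53LSL-25,26/+. Every embryo thus carried Wnt1Cre, which drives recombination in neural crest and in the dorsal neural tube it leaves, and R26mTmG, a reporter that turns cells green after recombination. In p53_activated embryos the same recombinase released a stabilised p53 protein from 1 Trp53 allele, beside a normal allele. Green cells were sorted, so cells of the dorsal neural tube can be among them. Library totals ran from 12368058 to 28379562 counts.

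LIN28A and LIN28B are RNA-binding proteins that block the maturation of the let-7 family of microRNAs in early embryonic cells. When LIN28 declines, let-7 accumulates and represses a set of early genes, among them Lin28a and Lin28b themselves, the TRIM71 gene (also known as Lin41), Hmga2 and the Igf2bp genes. This double-negative circuit was first found in the nematode, where its members set the timing of cell fates. DNMT3A and DNMT3B are the methyltransferases that lay down new DNA methylation, with DNMT3B prominent in the early embryo and DNMT3A later.

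The let-7 sequences and their matches in the members are shown because let-7 repression links several of these genes. Members were chosen as genes of this circuit, and many are known let-7 targets, so the counts of sites describe them and are no independent feature. Of 11 mouse let-7 family names in RefSeq (GRCm38.p6), 10 share the same seed, bases 2 to 8, printed in capitals:
let-7a: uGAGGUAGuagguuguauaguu
let-7b: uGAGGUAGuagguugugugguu
let-7g: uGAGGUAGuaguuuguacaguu
miR-98: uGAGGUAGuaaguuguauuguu

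A site was taken as the 8 letters CTACCTCA, the complement of the seed followed by an A, on the transcript strand of the longest 3′ UTR that GENCODE M21 gives for each gene. At least 1 such site was present in 7 of the 10 members, against 488 (3.78%) of the 12924 tested genes with an annotated 3′ UTR. Trim71 held 4 sites, Igf2bp1 held 3 and Lin28a held 2. Lin28b, Igf2bp2, Igf2bp3 and Hmga2 held 1 each, and Hmga1, Dnmt3a and Dnmt3b held 0. With the shorter match CTACCTC, which contains every longer site, Trim71, Igf2bp1, Lin28b and Hmga2 had 4 each, and 1397 (10.8%) of tested genes had at least 1. The sites of the 3 members that held more than 1 are printed with the bases before them, the site in capitals:
Trim71 site 1 (chr9:114512472-114512493, minus strand): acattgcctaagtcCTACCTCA
Trim71 site 2 (chr9:114512376-114512397, minus strand): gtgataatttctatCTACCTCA
Trim71 site 3 (chr9:114509047-114509068, minus strand): ttagtatggattttCTACCTCA
Trim71 site 4 (chr9:114509021-114509042, minus strand): tggcaaaaagttgtCTACCTCA
Igf2bp1 site 1 (chr11:95961778-95961799, minus strand): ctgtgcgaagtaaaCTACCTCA
Igf2bp1 site 2 (chr11:95959357-95959378, minus strand): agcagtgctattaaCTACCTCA
Igf2bp1 site 3 (chr11:95958763-95958784, minus strand): tataaatggatgaaCTACCTCA
Lin28a site 1 (chr4:134005189-134005210, minus strand): cacagcctgttgaaCTACCTCA
Lin28a site 2 (chr4:134004551-134004572, minus strand): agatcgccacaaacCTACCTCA

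These are matches of letters on GRCm38 and not measured binding. Mature microRNAs are not captured in libraries of polyadenylated RNA.

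The labels were checked on p53 targets. Cdkn1a, the gene of the cell cycle inhibitor p21, lay at 5.82 to 9.57 CPM (counts scaled to a common library size) in control and at 90.8 to 117 CPM in p53_activated embryos. All 10 neural crest markers that were listed, Sox10 and Tfap2a among them, were detected, with summed levels of 292 to 376 CPM in control and 294 to 354 CPM in p53_activated libraries. Snai2, a transcription factor of migrating crest, was the 1 called by edgeR: it fell by 0.94 on the log2 scale (adjusted p = 0.0416), with 28.9 and 21.1 CPM in control replicates 1 and 2 and 10.6 to 12.9 CPM in the other controls. Without these libraries its log2 fold change was -0.41 (adjusted p = 0.269). DESeq2 also called Dlx2 higher (0.66, adjusted p = 0.0437). Neuronal markers moved with the genotype: edgeR called 9 of 10 lower, against 2.74% of all tested genes. The other, Prph, was at -0.76 (edgeR adjusted p = 0.0508), and DESeq2 called all 10 lower. The summed level of the 10 markers was 703 to 913 CPM in control against 354 to 565 CPM in p53_activated libraries. Of 10 neuroepithelium markers, genes of the neural tube, edgeR called Olig3, a transcription factor of the dorsal tube, higher (0.85 ± 0.21, adjusted p = 0.0237). Among all tested genes 4.49% were called higher. An unadjusted p under 0.05 was found for 22.6% of all tested genes and for 4 of the 10 markers. Their median log2 fold change was 0.33 and their summed level 144 to 269 CPM in control and 200 to 254 CPM in p53_activated libraries. Without control replicates 1 and 2 the median was 0.17, and edgeR called 0 (1 with an unadjusted p under 0.05). Erythroid markers summed to 831 to 4504 and 503 to 6059 CPM, epithelial markers to 78.7 to 189 and 43.3 to 128 CPM, endothelial and macrophage markers to 13.5 to 29.4 and 17.9 to 29.5 CPM and muscle markers to 84.7 to 146 and 52.96 to 102 CPM. No listed marker was at 0 in every library, and of these last 4 lists edgeR called 0 genes, with an unadjusted p under 0.05 for 2 epithelial and 3 muscle genes, while DESeq2 called 3 muscle genes. The median log2 fold change of tested markers was -0.26 (erythroid), -0.80 (epithelial), -0.34 (endothelial and macrophage) and -0.58 (muscle). In a sorted bulk sample, fewer cells of a type and less RNA per cell cannot be told apart. Control replicates 1 and 2 stood apart in the ratio of Hbb-y to Hbb-bh1, globins of the embryo's first red blood cells. The ratio was 4.97 and 2.69 in these libraries and 1.59 to 2.08 in the other 8. In primitive red cells Hbb-bh1 gives way to Hbb-y as the cells mature.

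Per length of exon, the 10 genes spanned more than an order of magnitude. Control means were 65.2 ± 8.83 RPKM (CPM per kilobase of exon, SD, n = 5) for Hmga2, which encodes an architectural chromatin protein, 31.0 ± 2.45 for Igf2bp2 and 25.7 ± 3.84 for Igf2bp1. They were 13.3 ± 13.1 RPKM for Hmga1, 10.5 ± 4.08 for Igf2bp3 and 6.63 ± 0.858 for Dnmt3a. Below these came Lin28b at 4.296 ± 1.83 RPKM, Lin28a at 3.36 ± 2.11, Dnmt3b at 2.64 ± 0.594 and Trim71 at 2.37 ± 1.04. The 5 control values of Hmga2 (51.5 to 75.5 RPKM) lay above those of Igf2bp2 (29.2 to 34.8), and these lay above those of Igf2bp1 (20.1 to 28.8). All lower neighbours in this order overlapped. In p53_activated libraries the means of the last pair changed places, at 33.2 ± 2.34 RPKM for Igf2bp1 and 29.0 ± 1.60 for Igf2bp2. Their ranges overlapped (30.7 to 37.0 and 27.4 to 31.2 RPKM). Exon length here merges the exons of all annotated transcripts of a gene, 9682 bases for Igf2bp1 and 7402 for Igf2bp2. The order of genes in RPKM depends on that choice. In CPM the control mean of Igf2bp1 (248) was already above that of Igf2bp2 (230).

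**Figure D1:**
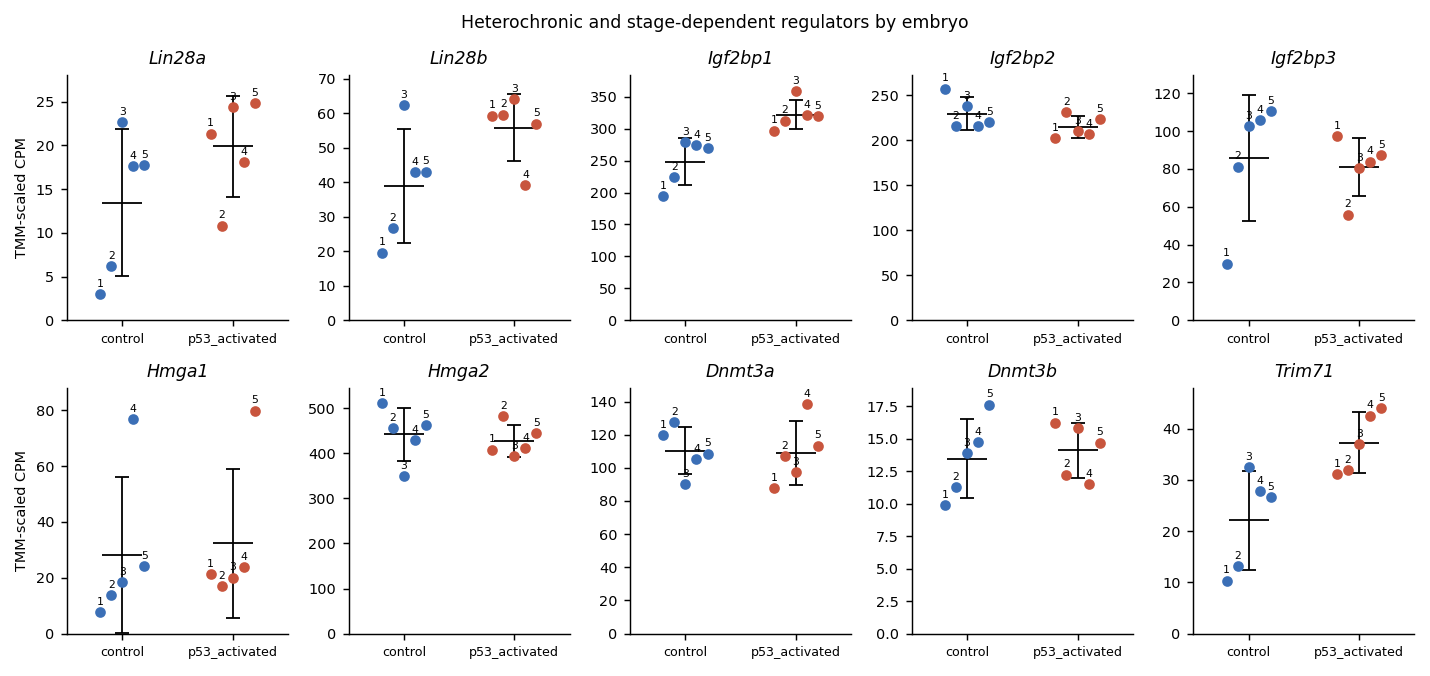
TMM-scaled CPM (y axis, from 0) of each of the 10 genes in control (blue) and p53_activated (red) embryos, with the replicate number at each point and the mean ± SD in black. Control replicates 1 and 2 hold the lowest Lin28a, Lin28b, Igf2bp1 and Trim71 values, and Hmga1 is high in control replicate 4 and p53_activated replicate 5.

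Of the 10 genes, Igf2bp1 passed an edgeR adjusted p of 0.05, and it was higher in p53_activated embryos. Among all tested genes 7.23% were called, 4.49% higher and 2.74% lower, so 1 call in 10 genes is near that background. Of the members 6 had a log2 fold change above 0 and 4 below, with a median of 0.13 against -0.010 for all tested genes. Trim71 was the other member with an unadjusted p under 0.05, as had 22.6% of all tested genes. The RNA-binding proteins are taken first below, then the chromatin proteins.

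LIN28A shuttles to the cytoplasm and recruits an enzyme that tags let-7 precursors for decay. Lin28a (ENSMUSG00000050966, chromosome 4, 134003330 to 134018841, minus strand) measured 2.96, 6.21, 22.7, 17.6 and 17.8 CPM in control replicates 1 to 5. In p53_activated replicates 1 to 5 it measured 21.3, 10.8, 24.4, 18.1 and 24.8 CPM. The 2 lowest values belonged to control replicates 1 and 2, the next to p53_activated replicate 2, and the groups overlapped. The log2 fold change was 0.55 ± 0.49 (SE), with a 95% interval of -0.53 to 1.64 and an edgeR adjusted p of 0.567. Its highest library was 8.40 times its lowest, a span that among the members was exceeded by Hmga1. Exons of the predicted gene Gm13061 cover 5.86% of its exon length.

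LIN28B is the paralogue that also binds let-7 precursors in the nucleus. Lin28b (ENSMUSG00000063804, chromosome 10, 45376620 to 45486395, minus strand) measured 19.6, 26.7, 62.3, 42.9 and 43.1 CPM in control replicates 1 to 5. The p53_activated replicates 1 to 5 had 59.3, 59.7, 64.2, 39.1 and 57.0 CPM. Control replicates 1 and 2 were again lowest, and p53_activated replicate 4 lay below control replicates 3 to 5, so the groups overlapped. The log2 fold change was 0.52 ± 0.27 (95% interval -0.071 to 1.10, edgeR adjusted p = 0.286).

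TRIM71 is a ubiquitin ligase and RNA-binding protein of early progenitors, without which the neural tube of mice does not close. Trim71 (ENSMUSG00000079259, chromosome 9, 114507133 to 114564369, minus strand) measured 10.3, 13.2, 32.5, 27.8 and 26.7 CPM in control replicates 1 to 5. It measured 31.0, 31.8, 36.9, 42.5 and 44.0 CPM in p53_activated replicates 1 to 5. Control replicates 1 and 2 were lowest, and control replicate 3 was the single control above the lowest p53_activated embryos. The log2 fold change was 0.75 ± 0.28 (95% interval 0.15 to 1.35), which did not pass in edgeR (adjusted p = 0.128). It passed with DESeq2 (0.75, adjusted p = 0.0322), which called 9.78% of 16601 genes. It also passed with the globin ratio as a covariate (0.56, adjusted p = 0.0328) and with the replicate block (0.86, adjusted p = 0.0195), which called 5.53% of genes. The globin ratio was highest in control replicates 1 and 2, where Trim71 was lowest. Without both libraries Trim71 was at 0.36 and did not pass (edgeR adjusted p = 0.175). The block joins embryos by replicate number alone. Same-numbered libraries correlated at -0.0529 to 0.113 in their deviations from the group means, so no pairing by number was seen over all tested genes. A pairing that acts on few genes could be missed by these correlations. Under the other 18 of 21 alternatives Trim71 did not pass. In the authors' deposited table Trim71 has a log2 fold change of 0.64 with a standard error of 0.21 and an adjusted p of 0.0298, and 10.8% of its 15089 genes with an adjusted p are under 0.05.

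The IGF2BP proteins bind messenger RNAs, Igf2 among them, and protect them from decay. Igf2bp1 (ENSMUSG00000013415, chromosome 11, 95957163 to 96005940, minus strand) measured 195, 224, 279, 275 and 269 CPM in control replicates 1 to 5. The p53_activated replicates 1 to 5 had 297, 313, 358, 321 and 320 CPM. The groups did not overlap, with all 5 p53_activated embryos higher, as for 4.54% of all tested genes, and control replicates 1 and 2 were again lowest. The mean of Igf2bp1 rose from 248 ± 37.1 to 322 ± 22.6 CPM (SD, n = 5), a log2 fold change of 0.37 ± 0.10 (95% interval 0.15 to 0.59, edgeR adjusted p = 0.0405). The call was lost under 9 of 21 alternatives. With upper quartile scaling the log2 fold change was 0.34 (adjusted p = 0.0681). Without both control replicates 1 and 2 it was 0.23 (adjusted p = 0.159). Leaving out 1 library lost it for control replicates 1 (adjusted p = 0.0641), 2 (0.108) and 5 (0.0505) and for p53_activated replicates 2 (0.0689), 3 (0.0928), 4 (0.0528) and 5 (0.0821). The fall of neuronal markers and the higher median of neuroepithelium markers given above moved with the same groups. So did the lower medians of epithelial and muscle markers. The part of all these markers in the difference of Igf2bp1 and of Trim71 was not tested. In the authors' deposited table Igf2bp1 has a log2 fold change of 0.36 with a standard error of 0.11 and an adjusted p of 0.0183.

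Its paralogues were not called. Igf2bp2 (ENSMUSG00000033581, chromosome 16, 22059009 to 22163299, minus strand), the member of the family that is kept in adult tissues, ran from 216 to 257 CPM in control and from 203 to 231 CPM in p53_activated embryos. It was the steadiest of the 10 genes, with a highest library 1.27 times the lowest and a log2 fold change of -0.096 ± 0.082 (95% interval -0.27 to 0.078, edgeR adjusted p = 0.546). Igf2bp3 (ENSMUSG00000029814, chromosome 6, 49085223 to 49214957, minus strand) measured 30.0, 81.2, 102, 106 and 110 CPM in control replicates 1 to 5. The p53_activated replicates 1 to 5 had 97.5, 55.9, 80.3, 83.9 and 87.1 CPM. Control replicate 1 was lowest, while control replicates 3 to 5 were above every p53_activated embryo. The log2 fold change was -0.088 ± 0.31 (adjusted p = 0.906), and without both control replicates 1 and 2 it was -0.39 (adjusted p = 0.13). Malsu1 covers 18.7% of the Igf2bp3 exon length, so part of its count is uncertain. A test of the difference between the paralogues was not made.

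HMGA1 and HMGA2 bind the minor groove of AT-rich DNA through AT-hooks and are abundant in embryonic and tumour cells. Hmga2 (ENSMUSG00000056758, chromosome 10, 120361275 to 120476469, minus strand) had the highest level of the 10 genes per exon length, and lay at 349 to 511 CPM in control and 394 to 482 CPM in p53_activated embryos. Its highest value was in control replicate 1, where Lin28a was lowest, and the log2 fold change was -0.046 ± 0.10 (95% interval -0.26 to 0.17, edgeR adjusted p = 0.84). Hmga1 (ENSMUSG00000046711, chromosome 17, 27556497 to 27563674, plus strand) measured 7.56, 13.9, 18.6, 76.8 and 24.3 CPM in control replicates 1 to 5. The p53_activated replicates 1 to 5 had 21.3, 17.0, 20.1, 23.7 and 79.9 CPM. A single library of each genotype thus lay far above the rest, and the log2 fold change was 0.20 ± 0.71 (adjusted p = 0.908). Leaving out control replicate 4 gave 1.01, and leaving out p53_activated replicate 5 gave -0.45.

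The Hmga1 count is uncertain, because 55.0% of the 50-base words of its transcripts also occur in transcripts of other genes. How reads that match several genes were counted is not given in the sources used here.

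The de novo methyltransferases differed between the groups by less than the spread between embryos. Dnmt3a (ENSMUSG00000020661, chromosome 12, 3806007 to 3914443, plus strand) ran from 90.3 to 128 CPM in control and from 88.0 to 139 CPM in p53_activated embryos. Its log2 fold change was -0.016 ± 0.12 (95% interval -0.27 to 0.24, edgeR adjusted p = 0.958). Dnmt3b (ENSMUSG00000027478, chromosome 2, 153649450 to 153687730, plus strand) ran from 9.89 to 17.6 CPM and from 11.5 to 16.2 CPM. Its log2 fold change was 0.064 ± 0.17 (95% interval -0.31 to 0.43, adjusted p = 0.874). Dnmt3b shares 9.81% of its 50-base words with other genes, most often with Dnmt3c, which had a count of 0 in every library. Per exon length Dnmt3a stood above Dnmt3b in every library, at 5.29 to 8.33 against 1.94 to 3.45 RPKM.

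Control replicates 1 and 2 weighed on several of these differences. Without both, the log2 fold change of Lin28a went from 0.55 to 0.032 (edgeR adjusted p = 0.965) and that of Lin28b from 0.52 to 0.17 (adjusted p = 0.631). Trim71 went to 0.36 (adjusted p = 0.175). In that fit 0 of the 10 genes were called by edgeR, and 4.36% of 15063 genes were. With the globin ratio as a covariate in all 10 libraries, Lin28a was at 0.30 (adjusted p = 0.408) and Lin28b at 0.31 (adjusted p = 0.156). Igf2bp1 at 0.28 (adjusted p = 0.0382) and Trim71 passed in that fit, in which 7.14% of genes were called. Hmga1, Hmga2, Dnmt3a and Dnmt3b changed sign in both fits and were called in neither.

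**Figure D2:**
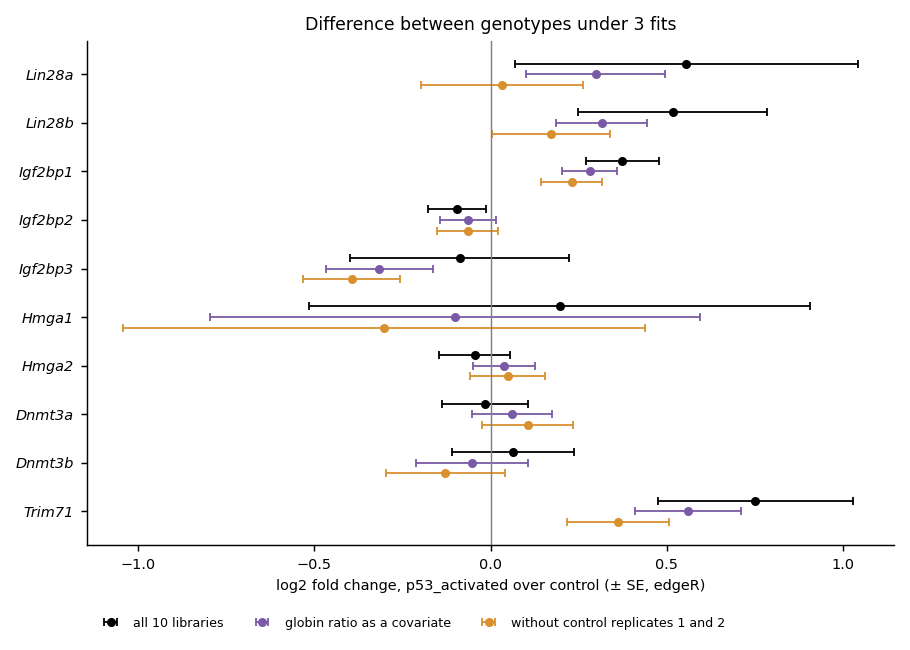
Log2 fold change of each gene, p53_activated over control, with its SE (x axis), from edgeR with all 10 libraries (black), with the globin ratio as a covariate (purple) and without control replicates 1 and 2 (orange). Lin28a moves from 0.55 to 0.032 between the first and the last fit, and Igf2bp1 from 0.37 to 0.23.

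Over both groups together, Lin28a varied with several other members. The relation was measured on log2 CPM centred on the mean of each group, over 10 libraries. Permutation was exact, two-sided and within groups, with adjustment over 10 relations. No r was computed within a single genotype. In the p53_activated group, replicate 2 was lowest in Lin28a (10.8 CPM) and in Igf2bp3 (55.9 CPM). It was not lowest in Lin28b (59.7 CPM), Igf2bp1 (313 CPM), Trim71 (31.8 CPM) or Dnmt3b (12.2 CPM). Lin28a varied with Trim71 (Pearson r = 0.93, permutation p = 0.00743, adjusted p = 0.0209; Spearman rho = 0.90, p = 0.0137, adjusted p = 0.0354). With Igf2bp3 the values were r = 0.90 (exact p = 0.00674, adjusted p = 0.0209) and rho = 0.87 (p = 0.0142, adjusted p = 0.0354). With Igf2bp1 they were r = 0.90 (exact p = 0.0100, adjusted p = 0.0209) and rho = 0.84 (p = 0.0228, adjusted p = 0.0457). Lin28b gave r = 0.85 (exact p = 0.0126, adjusted p = 0.0209) with rho = 0.82 (p = 0.0349, adjusted p = 0.0582), and Dnmt3b gave r = 0.82 (exact p = 0.0110, adjusted p = 0.0209) with rho = 0.66 (p = 0.0629, adjusted p = 0.0899).

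The other members gave a Pearson r that did not pass. Hmga1 had r = 0.66 (exact p = 0.0592, adjusted p = 0.074), although its rho of 0.84 passed (p = 0.00972, adjusted p = 0.0354). Hmga2 ran the other way, with r = -0.74 (exact p = 0.0373, adjusted p = 0.0533) and rho = -0.52 (p = 0.166, adjusted p = 0.185). Igf2bp2 had r = -0.51 (exact p = 0.243, adjusted p = 0.243) with rho = -0.30 (p = 0.489, adjusted p = 0.489), and Dnmt3a had r = -0.51 (exact p = 0.112, adjusted p = 0.125) with rho = -0.56 (p = 0.0849, adjusted p = 0.106).

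Lin28a fell with a rising globin ratio, at r = -0.93 (exact permutation p = 0.00243, adjusted p = 0.0209) and rho = -0.95 (p = 0.00222, adjusted p = 0.0222). The link of these libraries to Lin28a was known from an earlier reading of the data, so it is a description rather than independent evidence. These relations rest on few libraries. Without the 2 libraries farthest from the median of Lin28a, control replicate 1 and p53_activated replicate 2, r was 0.90 for Trim71, 0.89 for Lin28b, 0.82 for Igf2bp1, 0.75 for Igf2bp3 and 0.67 for Dnmt3b, and -0.96 for the globin ratio. None of the 10 then passed the adjustment (adjusted exact permutation p of 0.0521 to 0.429 for r). With control replicates 1 and 2 removed instead, an alternative added after seeing the data, r was 0.79 for Igf2bp3, 0.53 for Trim71, 0.37 for Igf2bp1, 0.25 for Lin28b and -0.54 for the globin ratio, and again none passed. Hmga2 was at r = -0.65 in that set (exact permutation p = 0.0417, adjusted p = 0.368). Without the 2 farthest libraries it was at -0.50 (adjusted exact permutation p = 0.428).

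**Figure D3:**
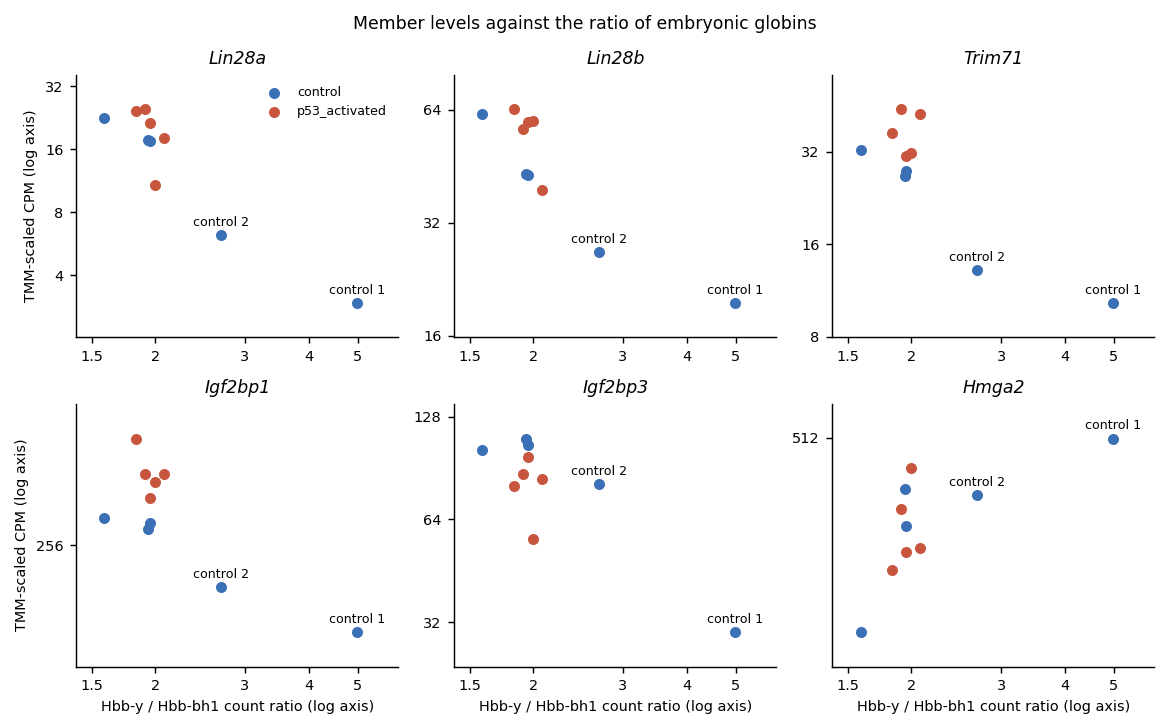
TMM-scaled CPM of 6 genes (y axis, log scale) against the ratio of Hbb-y to Hbb-bh1 counts (x axis, log scale), 1 point per embryo, control in blue and p53_activated in red. Control replicates 1 and 2, at ratios of 4.97 and 2.69, hold the lowest Lin28a, Lin28b, Trim71 and Igf2bp1, and control replicate 1 holds the highest Hmga2.

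The genes most like a member were taken by the Pearson r of log2 CPM over all 10 libraries, as a description with no test. Lin28a was most like Igdcc3 (r = 0.99), a cell surface gene of the immunoglobulin superfamily, then Rcc1 and Mettl3 (0.98 each). Lin28b was most like Prtg (0.98), the gene of protogenin, which belongs to the same surface family as Igdcc3, then Eed (0.97), a subunit of the Polycomb repressive complex, and Pold3 (0.96). Trim71 was most like Fam187b (0.99), Kpnb1 and Crb2 (0.96 each). Igf2bp1 was most like Dhx38, Noc3l and Arhgap28 (0.96 each), of which Dhx38, a splicing helicase gene, rose by 0.39 on the log2 scale (edgeR adjusted p = 0.036), while the others did not pass. Dnmt3b was most like Mcm5 (0.97), a subunit of the replicative helicase, and Igf2bp3 most like Baz1a (0.98). For Hmga1 no gene went above 0.88 (Rpp40). All of these values share the same 10 libraries, control replicates 1 and 2 among them.

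The number of let-7 sites printed above can be set beside the difference between genotypes. The 2 members with 3 or more sites, Trim71 and Igf2bp1, were also the members with the smallest p. Among all 463 tested genes with 1 site the median log2 fold change was 0.020, among 18 with 2 sites 0.19 and among 7 with 3 or more 0.36, against -0.014 among 12436 with no site. The 7 genes were Igf2bp1, Trim71, Mcf2l, Nr6a1, Trim6, Fign and Fignl2, so 2 of them are members. Without the members the median of the other 5 was 0.22. Without control replicates 1 and 2 it was 0.23 for the 7 genes and 0.033 for the 5. Of the 7, edgeR called Igf2bp1 and Trim6 (log2 fold change 1.10 ± 0.30, adjusted p = 0.0392) higher. Trim6 was low, at 1.08 to 2.04 CPM in control and 2.15 to 4.06 CPM in p53_activated embryos. Without control replicates 1 and 2 Trim6 was at 1.03 and did not pass (edgeR adjusted p = 0.115). Mcf2l, with 7 sites, was at -0.11 (adjusted p = 0.849) and Fign at -0.10 (adjusted p = 0.82). The median of the 7 is the value of Fignl2, whose control replicates 1 and 2 had 24.8 and 36.1 CPM against 59.0 to 66.4 CPM in the other controls. Of 488 genes with any site 36 were called higher and 8 lower, and of the 12436 without a site 600 and 379 were. Site number grows with the length of the 3′ UTR, and the part of length in these medians was not tested.

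**Figure D4:**
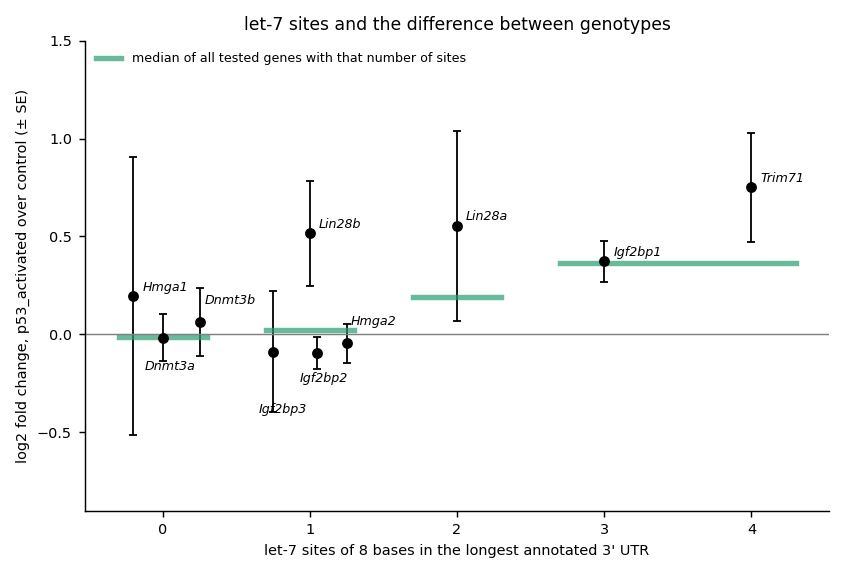
Log2 fold change of the 10 genes, p53_activated over control, with its SE (y axis), against the number of let-7 sites in the longest annotated 3′ UTR (x axis; points are shifted sideways to be readable). Green bars are medians over all tested genes with 0, 1, 2 and 3 or more sites (-0.014, 0.020, 0.19 and 0.36); Trim71, with 4 sites, is highest at 0.75.

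The genes that make and clear let-7 were read from a list of 15, with a median log2 fold change of 0.16. Of these edgeR called 4 higher and 0 lower, against 4.49% and 2.74% of all tested genes. Xpo5, which exports microRNA precursors from the nucleus, went up to 41.5 CPM against 27.9 CPM in control embryos, by 0.57 ± 0.12 on the log2 scale (edgeR adjusted p = 0.00859). Dicer1, the nuclease that cuts precursors to mature microRNAs, rose from 64.7 to 85.2 CPM (0.40 ± 0.10, adjusted p = 0.0249), a call that was lost with scaling by library totals (adjusted p = 0.0543). Ago2, which carries the mature strand, rose from 31.9 to 57.8 CPM (0.86 ± 0.20, adjusted p = 0.0174). Zcchc6, a terminal uridylyltransferase also called TUT7, rose from 4.23 to 7.77 CPM (0.88 ± 0.24, adjusted p = 0.0358), and Etohd2 overlaps 10.4% of its exons. Its paralogue Zcchc11, the enzyme that LIN28A recruits, did not pass in edgeR (0.97 ± 0.29, adjusted p = 0.0654) and passed in DESeq2 (adjusted p = 0.00882). Drosha did not pass in edgeR (0.25 ± 0.093, adjusted p = 0.114). Without both control replicates 1 and 2, a fit with fewer libraries, 2 of the 15 were called, Xpo5 and Dicer1. Ago2 was then at 0.78 (edgeR adjusted p = 0.127). Of the let-7 host transcripts 2 were tested: Huwe1, whose introns hold 2 let-7 family microRNAs, rose (0.45 ± 0.11, adjusted p = 0.0219), and Mir99ahg did not pass (-0.82 ± 0.34, adjusted p = 0.185).

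Of 18 genes known as let-7 targets, other than the members, edgeR called 4 higher and 0 lower, against 4.49% and 2.74% of all tested genes. The median log2 fold change of the 18 was 0.23. Cdc34, a ubiquitin-conjugating enzyme of the cell cycle, rose from 522 to 1256 CPM (1.27 ± 0.11, edgeR adjusted p = 1.24e-06). Irs2 (0.88 ± 0.17, adjusted p = 0.0048) and Igf1r (0.66 ± 0.16, adjusted p = 0.0201), which act in insulin and IGF signalling, rose as well. Ccnd1, the cyclin D1 gene, also rose (0.85 ± 0.14, adjusted p = 0.00109), and exons of LTO1 overlap 23.4% of its own. Mycn (0.42 ± 0.13, adjusted p = 0.0575) and Ccnd2 (0.33 ± 0.10, adjusted p = 0.0582) did not pass in edgeR and passed in DESeq2 (adjusted p = 0.0321 and 0.0363), which called 6 of the 18. Nr6a1 (0.22 ± 0.35), an early embryonic nuclear receptor, passed in neither. Without both control replicates 1 and 2, a fit with fewer libraries, 4 were called, with Nras lower. Igf1r was no longer among them, at a log2 fold change of 0.65 (edgeR adjusted p = 0.0889) against 0.66 with all libraries.

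In the DNA methylation list edgeR called 2 of 11 tested genes higher and 0 lower, against 4.49% and 2.74% of all tested genes. Dnmt1, which copies methylation after replication, had 86.0 CPM against 48.3 CPM in control embryos and rose by 0.83 ± 0.18 on the log2 scale (edgeR adjusted p = 0.0154). Uhrf1, which brings DNMT1 to replicated DNA, rose by 0.29 ± 0.080 (adjusted p = 0.0375). The dioxygenase genes Tet1 (0.70 ± 0.26, adjusted p = 0.114) and Tet3 (0.79 ± 0.31, adjusted p = 0.15) did not pass in edgeR, and DESeq2 called the same pair as edgeR. Without both control replicates 1 and 2, a fit with fewer libraries, 0 of the 11 were called by edgeR, against 4.36% of all genes. In that fit 6 had an unadjusted p under 0.05, and Dnmt1 was at 0.73 (adjusted p = 0.0876). The median log2 fold change of the list was then 0.45, against 0.29 with all libraries.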

How the data were processed

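The deposited values are raw counts for each Ensembl gene, 1 column per embryo. The submitters' processing notes list GRCm38, DESeq2 1.14.1, HTSeq 0.6.1, SAMtools 1.3.1 and HISAT2 2.0.4 without their settings. Annotation release and strand setting: not given in the sources used here. A second deposited table holds, per the file headers, the authors' mean normalized count (a signal), log2 fold change with its standard error, Wald statistic (a score) and p-values.

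Genes were filtered with filterByExpr (minimum count 10, minimum total 15), and TMM-scaled counts of all 10 libraries entered edgeR 4.0.16 (R 4.3.3; quasi-likelihood, robust dispersions, no covariate). Benjamini-Hochberg adjustment ran over 14528 genes, with calls under 0.05. An SE is the size of the log2 fold change over the square root of F. Relations used log2 CPM with prior count 2. Exon lengths, merged over all transcripts of a gene, came from GENCODE M21 (GRCm38), which held 99.3% of identifiers. Controls were littermates of p53_activated embryos, but the labels tie no embryo to a litter, so litter could not be a term of the fit. On simulated data for this comparison (14528 genes) the test found 32.8% of 1.5-fold, 67.2% of 2-fold and 98.5% of 4-fold changes, with 5 false calls among 137. Changes were put only into genes with a control mean above 2 CPM. Counts were drawn independently for each gene, without differences that many genes share, such as those of control replicates 1 and 2. The share of false calls therefore cannot be carried over to the real libraries. Library pairs differed by more than sampling noise (chi-square over its degrees of freedom, 14.9 to 71.5).

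The members, the companion lists and the alternatives were chosen with earlier results of these data known. All members are named. From each list up to 4 genes with the smallest p are named, with others that did not pass, and for likeness the genes with the highest r, predicted genes left out. Genes outside that rule (such as Snai2, Olig3, Dlx2, Nras, Nr6a1 and Trim6) were named after their values were seen. Of 158 list entries 2 had no row in the table. Alternatives were other scalings and filters, DESeq2 1.42.0, limma-voom (limma 3.58.1), non-robust dispersions, the replicate block, the globin ratio as a covariate, and leaving out single libraries or both control replicates 1 and 2.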

Additional observations from a re-analysis of the deposited data

Results flagged for a closer look

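In each genotype, 1 embryo was checked for standing far from the other 4, by the gap to its nearest neighbour over the whole range of the group (limit 0.71), for the 10 genes and the globin ratio, 22 groups in all. Chance flags about 1 in 20 groups, and 3 stood out. Hmga1 was 76.8 CPM in control replicate 4, against 7.56 to 24.3 CPM in the other controls. It was 79.9 CPM in p53_activated replicate 5, against 17.0 to 23.7 CPM in the other 4. Lin28b was 39.1 CPM in p53_activated replicate 4, against 57.0 to 64.2 CPM in the others.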

How the results depend on the processing

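Over all tested genes 1050 were called, 652 higher and 398 lower. DESeq2 called 1623 (663 lower), and the fit without both control replicates 1 and 2 called 656 (194 lower). Leaving out 1 library gave 636 to 1025 calls, 430 to 707 higher and 192 to 433 lower. With upper quartile scaling 51.7% of calls were higher, against 62.1%, and with library totals 56.0%. Of the 10 members 1 was called. The count was 2 with DESeq2, the globin ratio covariate or the replicate block (Igf2bp1 and Trim71), 0 with upper quartile scaling or without both control replicates 1 and 2, and 0 to 1 when 1 library was left out. Members that were not called changed sign as follows. Hmga1 was at -0.10, Hmga2 at 0.038, Dnmt3a at 0.061 and Dnmt3b at -0.053 with the globin ratio covariate. They were at -0.30, 0.049, 0.11 and -0.13 without both control replicates 1 and 2, and Igf2bp3 was at 0.026 with limma-voom. With 1 library left out the ranges were -0.31 to 0.021 for Igf2bp3, -0.45 to 1.01 for Hmga1, -0.11 to 0.012 for Hmga2, -0.12 to 0.052 for Dnmt3a and -0.030 to 0.18 for Dnmt3b. No pairing by replicate number was seen over all tested genes: same-numbered libraries correlated at -0.0529 to 0.113 in their deviations from the group means, and 1 of 5 control libraries correlated best with its own number. The replicate block called 804 genes. Relations of Lin28a without its 2 farthest libraries were 0.89 (Lin28b), 0.82 (Igf2bp1), 0.75 (Igf2bp3), 0.67 (Dnmt3b), 0.90 (Trim71), -0.96 (globin ratio) and 0.53 (Igf2bp2, opposite in sign to -0.51). Without both control replicates 1 and 2 they were 0.25, 0.37, 0.79, 0.48, 0.53 and -0.54 for the first 6. In the companion lists, calls without both control replicates 1 and 2 were 2 for let-7 processing (4 with all libraries), 0 for DNA methylation (2), 0 for early embryo genes (1) and 0 for temporal factors (1). With upper quartile scaling DNA methylation had 1 and early embryo genes 0, and with library totals temporal factors had 0. The causes were not tested. Counts per library ran from 52 to 550 for Lin28a, 143 to 350 for Dnmt3b, 133 to 1204 for Hmga1 and 168 to 1292 for Trim71. The part of low counts in these changes was not tested.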

Other observations

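Most genes of the pluripotent embryo were at or near 0 in these cells: of 10 listed, Pou5f1, Nanog, Utf1, L1td1, Tdgf1, Zfp42 and Esrrb had too few counts to be tested. Of the 3 tested, Sall4, a zinc finger gene of early progenitors, was at 108 CPM in control and 147 CPM in p53_activated embryos. It rose by 0.45 ± 0.13 on the log2 scale (edgeR adjusted p = 0.0476), and 4.49% of all tested genes were called higher. The call of Sall4 was lost with upper quartile scaling (0.41, adjusted p = 0.0726) and without both control replicates 1 and 2 (0.31, adjusted p = 0.196). Prtg went from 48.2 to 80.0 CPM without passing (0.72 ± 0.53, adjusted p = 0.482), and Sox2 stood at 16.5 CPM in both groups (adjusted p = 0.995). Among transcription factors that mark successive waves of neurons, Pou2f2 fell from 77.7 to 54.7 CPM (-0.50 ± 0.13, edgeR adjusted p = 0.0333), the 1 call among 10 tested genes, against 7.23% of all tested genes. Nfib (-0.61 ± 0.25, adjusted p = 0.17), Nfia (0.035 ± 0.29) and Onecut1 (1.38 ± 0.46, adjusted p = 0.079) did not pass in edgeR, while DESeq2 called Onecut1 as well as Pou2f2 (adjusted p of Onecut1 = 0.0485). Exons of other genes, Gm20649 most of all, overlap 52.8% of the Onecut1 exon length, so its count is uncertain. Without both control replicates 1 and 2 Onecut1 was at 1.17 (edgeR adjusted p = 0.24).

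Of 13 genes that write, erase or read the RNA mark m6A, which IGF2BP proteins bind, 0 were called by edgeR and 0 by DESeq2. Over all tested genes these shares were 7.23% and 9.78%. In edgeR 2 of the 13 had an unadjusted p under 0.05, against 22.6% of all tested genes. The median log2 fold change was 0.14, against -0.010 for all tested genes. The count table also lists let-7 hairpin genes with few counts, and which transcripts these counts came from was not tested. Mirlet7i had 40 counts over all libraries, 7 of them in control and 33 in p53_activated libraries, 19 of these in p53_activated replicate 4. Mirlet7c-1 had 13, all in control replicates 1, 2 and 4. Mir98 had 14, in control replicate 1 and p53_activated replicate 2 alone. The remaining 9 hairpin genes had 0 to 5 counts each, too few to compare.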
